A study of Homo sapiens with 7 samples.

Results

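The matrix metalloproteinases (MMPs), the ADAM and ADAMTS proteases and the tissue inhibitors of metalloproteinases (TIMPs) were examined in ACHN cells with and without forced expression of HOTAIR. ACHN is an established human renal cell adenocarcinoma line, and HOTAIR is a long noncoding RNA. The genes were taken from the array annotation by name alone, as every gene symbol that begins with MMP, ADAM, ADAMTS or TIMP followed by a digit. This gave 69 of the 34809 gene names on the array, measured by 90 of its 42405 probes. The control cells (EV) carried an empty pBabe-hygro retroviral vector and were measured on 4 arrays. The HOTAIR cells carried the same vector with HOTAIR and were measured on 3 arrays. Both kinds of cell had been selected with hygromycin, and no other agent was named. Each array received 1 sample of Cy3-labelled total RNA on an Agilent SurePrint G3 Human GE microarray, and the study asked which genes HOTAIR changes in renal carcinoma cells. The sources used here do not say whether the samples of a group came from separate transductions or cultures, so the p-values measure the spread between these samples, which may be technical. In RNA from whole cultures, fewer cells that make a transcript and less transcript per cell cannot be told apart.

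The MMPs are zinc proteases that are made as inactive precursors and cut collagens, laminins and other proteins outside the cell. Most are secreted, and the membrane-type MMPs stay attached to the cell surface. The ADAMs are membrane-anchored relatives that release the outer parts of growth factors, receptors and adhesion molecules, and several of them lack a complete zinc site and act in adhesion instead. The ADAMTS proteases are secreted and carry thrombospondin repeats, with which they bind the matrix. The TIMPs block the active site of these enzymes. Tumour invasion is the process with which the families are most often linked, and in many tumours the stromal and immune cells supply a large share of the secreted MMPs.

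Values are log2 of the background-subtracted spot intensity relative to the 75th percentile of the same array, so that 0 is the intensity below which 75% of the spots lie. A probe's intensity depends on its own sequence, and values are therefore compared between arrays and not between genes. A gene was called detected on an array where the scanner software put at least as many of a probe's spots well above background as not. The averaged value of such a probe can lie below the lowest signal well above background on that array. This held for ADAMTS4, ADAMTS10 and MMP13 on the 1 HOTAIR array that detected each. A probe was tested where it was detected on every array of at least 1 group. The 75th percentile lay between 522.5 and 649 intensity units on the EV arrays and between 552 and 640 on the HOTAIR arrays. Between 48.7% and 50.9% of probes were well above background on the EV arrays, against 49.7% to 52.1% on the HOTAIR arrays. The number of arrays limits the precision.

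The labels were first set against HOTAIR itself. The HOTAIR probe read -6.29, -6.97, -6.42 and -7.07 on the EV arrays and -3.12, -3.24 and -2.58 on the HOTAIR arrays. No EV array held it well above background, and the signal in HOTAIR cells was at least 4.80-fold higher than the lowest measurable EV signal (log2 difference 3.71, adjusted p = 0.00162 by limma). In such a bound the EV value is the mean, over arrays, of the higher of the lowest signal well above background and the probe's own signal. Such a bound concerns the ratio of the group means and leaves out the spread between arrays. The log2 difference of 3.71 rests on EV readings that were not well above background, so it is not a measured size. IGFBP2, a secreted binding protein of the insulin-like growth factors, was 5.15-fold higher (log2 difference 2.37, adjusted p = 0.00162 by limma). After the normexp background correction the log2 differences were 1.06 for HOTAIR and 1.22 for IGFBP2, with the same calls. With the replicate number as a block, both calls were lost (adjusted p = 0.0772 for HOTAIR and 0.127 for IGFBP2 by limma). Renal epithelial genes were present throughout, with 8 of 9 markers (among them PAX8, PAX2, KRT8, KRT18 and EPCAM) well above background on all 7 arrays and CDH6 on none. The KRT8 probes are annotated to chromosomes 8 and 1, and the KRT18 probes to chromosomes 4 and Y. The transcripts that these keratin probes measure are therefore uncertain. Of the fibroblast markers, THY1 was detected on all 7 arrays, and the other 7 of 8, including COL1A1, COL1A2, COL3A1 and DCN, were detected on none. CD68 and CD14 were detected among 6 leukocyte markers. PTPRC, the pan-leukocyte antigen CD45, was not detected on all arrays by any probe, and none of 5 endothelial markers was. The summed fibroblast signal, on a linear scale where 1 is the 75th percentile, ran from 6.56 to 9.31 on the EV arrays and from 7.34 to 8.21 on the HOTAIR arrays, and the THY1 probe made up most of that sum. The CD68 probe made up most of the leukocyte sum, which ran from 1.40 to 1.59 on the EV arrays and from 1.45 to 1.60 on the HOTAIR arrays. The endothelial sum stayed between 0.0669 and 0.0874 on all 7 arrays, and the CDH5 probe added the most to it.

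ACHN cells expressed part of these genes. Of the 69 genes, 28 were detected on all 7 arrays, 12 on some and 29 on none. Among the classes of 4 or more genes, the membrane-type MMPs (5 of 6 genes on all arrays), the catalytically active ADAMs (8 of 12) and the TIMPs (3 of 4) were the fullest classes. By contrast the secreted collagenases, gelatinases, stromelysins and matrilysins together contributed MMP1, MMP11 and MMP7. By family, 10 of 23 MMPs, 8 of 23 ADAMs, 7 of 19 ADAMTS genes and 3 of 4 TIMPs were detected on all arrays. The tested probes were 38 of 90, or 42.2%, against 48.2% of all probes on the array. They measured 32 of the 69 genes, and on the whole array 16664 of 34809 genes were tested. Of the 5 genes taken to mark the families, MMP1, MMP14, ADAM10 and TIMP1 were detected on all arrays and MMP2 on none.

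**Figure D1:**
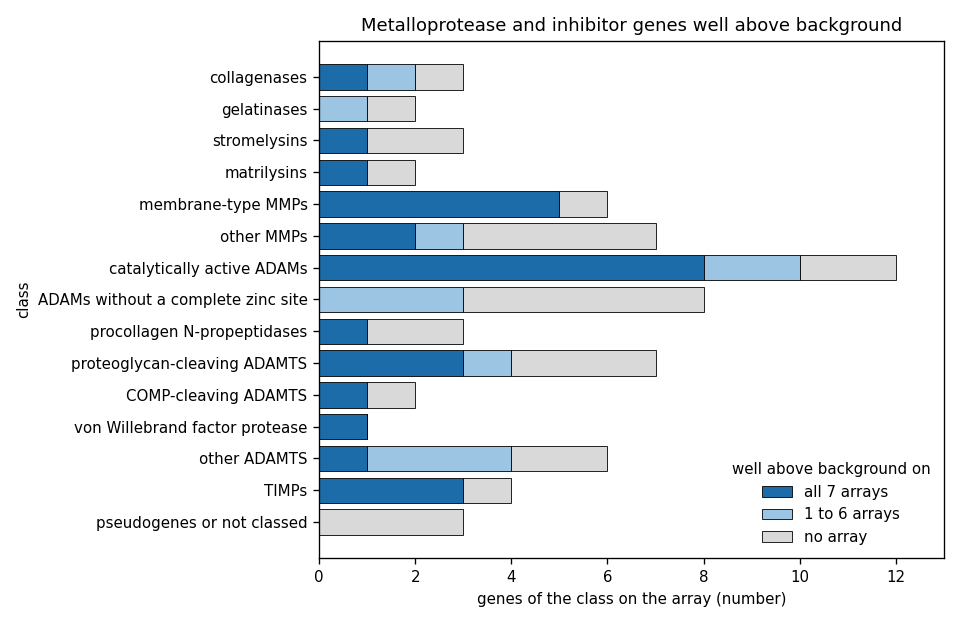
Horizontal bars give the number of genes in each class, divided into genes with a probe well above background on all 7 arrays (dark blue), on 1 to 6 arrays (light blue) and on no array (grey). The catalytically active ADAMs and the membrane-type MMPs have the longest dark bars, and no gelatinase was detected on all arrays.

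Across the 38 tested probes of the families, limma called no difference between HOTAIR and EV cells. The rank product called 1 member probe, of ADAMTS6, lower (estimated share of false positives 0.0417). No member probe passed an adjusted p of 0.05 by limma, against 0.167% of all 20419 probes tested (34 probes). The lowest adjusted p of a member by limma was 0.240, for ADAMTS6. An unadjusted p under 0.05 was found for 8 member probes (21.1%), where the share over all tested probes was 5.85%. The shares were 10% against 4.71% with no filter on dim probes, 10.5% against 5.25% with the replicate block and 13.2% against 4.14% on the deposited table without scaling. The EV and HOTAIR arrays did not overlap for 7 member probes of 6 genes, which is 18.4% of those tested, against 7.70% of all probes. With no filter on dim probes the shares were 7.78% of the 90 member probes and 5.74% of all probes. ADAM19, ADAM8 and TIMP4 were higher in all 3 HOTAIR arrays than in all 4 EV arrays, where 4.20% of all probes were. ADAMTS6 by both tested probes, MMP24 and 1 of the probes of ADAM10 were lower, where 3.50% of all probes were. The median log2 difference, HOTAIR minus EV, was 0.054 over the member probes and 0.013 over all tested probes, with 21 member probes higher and 17 lower. Member differences ran from -0.85 to 0.82, and the median standard error was 0.17. For 28 of the 38 probes (73.7%) the 95% interval of the difference lay inside 1 log2 unit in both directions, which held for 87.0% of all tested probes. For the other probes a 2-fold difference was not excluded by the interval. The 7 arrays lay on 1 slide with EV in one row and HOTAIR in the other, and the effects of row and group cannot be told apart.

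**Figure D2:**
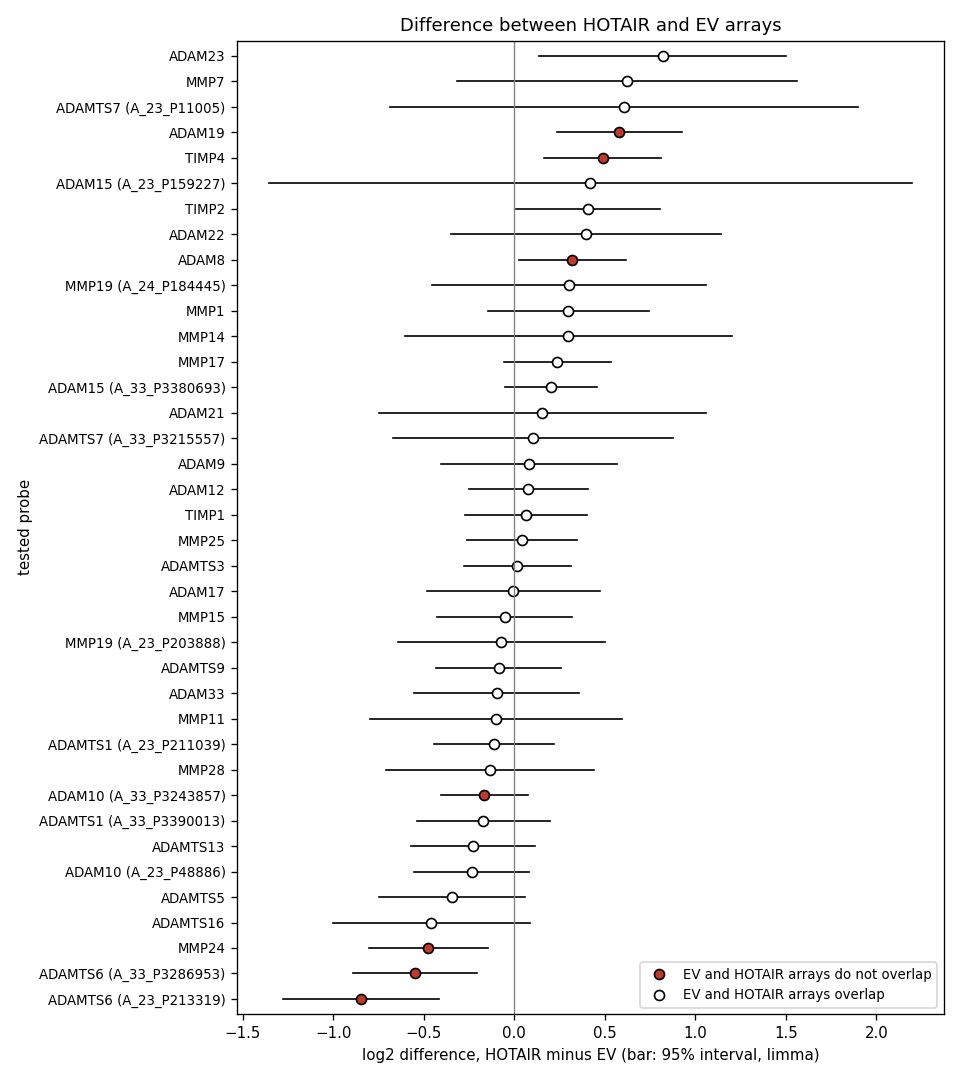
Points give the log2 difference, HOTAIR minus EV, of each of the 38 tested probes, and bars give the 95% interval from limma (4 EV and 3 HOTAIR arrays). The 7 filled points are probes whose EV and HOTAIR arrays do not overlap, and the differences run from -0.85 for ADAMTS6 to 0.82 for ADAM23.

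Among the collagenases, MMP1 was the member that ACHN expressed. MMP1, interstitial collagenase, which cuts fibrillar collagen, read -3.80, -3.41, -4.19 and -4.03 on the EV arrays and -3.67, -3.58 and -3.44 on the HOTAIR arrays (probe at chr11:102660697-102660756, hg19, minus strand). The groups overlapped through EV 2, the highest of all 7 arrays. The log2 difference was 0.30 (95% interval -0.15 to 0.74, adjusted p = 0.951 by limma), and it was 0.45 without EV 2, 0.19 without EV 3 and 0.11 after the normexp background correction. MMP8, the neutrophil collagenase, was not detected on any array. MMP13 was detected on 1 HOTAIR array.

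Neither gelatinase was tested. MMP2, gelatinase A, which degrades type IV collagen, read between -7.45 and -7.01 on the EV arrays and between -7.17 and -6.69 on the HOTAIR arrays, with no array well above background. MMP9, gelatinase B, lay at the edge of detection, well above background on 3 of 4 EV arrays and 2 of 3 HOTAIR arrays. It read -5.10, -5.18, -4.91 and -4.67 on the EV arrays and -4.75, -5.01 and -4.78 on the HOTAIR arrays, and the groups overlapped.

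Of the stromelysins, MMP3 and MMP10 were not detected on any array, and MMP3 stayed between -7.62 and -7.11 on all 7. MMP11, stromelysin-3, known from tumour stroma, was detected on all arrays and differed by -0.10 (95% interval -0.80 to 0.60). It read -3.62 on EV 2 and between -4.70 and -4.57 on the other EV arrays, and the difference turned to 0.16 without EV 2 and to 0.08 without HOTAIR 2. The macrophage elastase MMP12 was not detected.

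MMP7, matrilysin, is a small MMP made by epithelial cells. It had the largest positive difference among the tested MMPs, and the widest interval among them. It read -4.38, -5.13, -5.12 and -4.37 on the EV arrays and -4.37, -3.18 and -4.83 on the HOTAIR arrays. HOTAIR 2 stood above the other 6 arrays, which overlapped. The log2 difference was 0.62 (95% interval -0.32 to 1.56, adjusted p = 0.952 by limma), and it was 0.15 without HOTAIR 2, 0.97 without HOTAIR 3 and 0.28 after the normexp background correction. The MMP7 promoter is shown because, of the member promoters that could be searched, it was the one that held the AP-1 heptamer. This motif is bound by Fos and Jun proteins, which are known to act on MMP promoters. RefSeq promoters (GRCh38.p14) were matched for 39 of the 69 genes, and the first promoter listed for each gene was searched. No promoter was matched for MMP1, MMP3, MMP9, MMP12 or MMP13, so theirs were not searched. The letters TGAGTCA were sought on both strands in the 250 bases before the start site. They occurred in 1 of those 39 (2.56%) and in 4.20% of all 35116 promoters in the table. The latter share counts every promoter of a gene, so the shares are not matched. The stretch below is chr11:102530748-102530867 on the minus strand, 120 bases that end at the base before the start site, and the capitals mark the heptamer, which begins at base -67 from the start site.
MMP7: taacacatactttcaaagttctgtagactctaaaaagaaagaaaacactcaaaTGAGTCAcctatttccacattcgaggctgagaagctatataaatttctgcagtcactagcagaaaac
A match is a description of these letters and not a binding site. The 14 AP-1 and ETS factor genes were all tested (16 probes). None passed the adjusted p by limma, and none had arrays that did not overlap. Their differences ran from -0.27 for FOSB to 0.46 for FOS, and FOSL1, an AP-1 subunit, differed by 0.10 and JUN by 0.04.

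The membrane-type MMPs were the best represented MMP class, and MMP24 was the member whose arrays separated. MMP24, membrane-type 5 MMP, known from the nervous system and the kidney, read 2.89, 2.58, 2.70 and 2.75 on the EV arrays and 2.42, 2.36 and 1.99 on the HOTAIR arrays (probe at chr20:33864708-33864767, hg19, plus strand). Every HOTAIR array lay below every EV array. The difference was -0.47 on the log2 scale (95% interval -0.81 to -0.14, exact permutation p = 0.0286, the smallest that 35 splits allow), but it did not pass after adjustment (adjusted p = 0.560 by limma). MMP14, membrane-type 1 MMP, the activator of MMP2 at the cell surface, read -3.04, -4.59, -3.24 and -3.39 on the EV arrays and -2.94, -3.10 and -3.77 on the HOTAIR arrays. EV 2 was the lowest EV array and HOTAIR 3 the lowest HOTAIR array. The log2 difference of 0.30 (95% interval -0.61 to 1.20) rested on EV 2 and was -0.04 without it. It was 0.20 without EV 2 and HOTAIR 3 and 0.065 after the normexp background correction. MMP17, a membrane-type MMP held by a lipid anchor, differed by 0.24, MMP15 by -0.05 and MMP25 by 0.04, and their groups overlapped. MMP16 was not detected.

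The remaining MMPs were mostly undetected. MMP28, epilysin, which epithelia make, differed by -0.13 and MMP19 was measured by a pair of probes that differed by -0.07 and 0.30, with overlapping groups in each case. The MMP28 difference turned to 0.099 without EV 2, and the negative MMP19 difference turned to 0.19 without HOTAIR 3. MMP23B was detected on 3 EV arrays and 1 HOTAIR array, and its probe also matches the MMP23A pseudogene by the accessions listed for it. MMP20, MMP21, MMP27 and the matrilysin MMP26 were not detected.

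ADAM10 and ADAM17, the main sheddases of the cell surface, had small differences whose 95% intervals included 0. ADAM10, which cuts Notch receptors and cadherins, was measured by 2 probes in neighbouring stretches of the transcript. The probe at chr15:58889401-58889460 (hg19, minus strand) read 0.20, 0.26, 0.15 and 0.13 on the EV arrays and 0.09, 0.08 and -0.10 on the HOTAIR arrays. The groups did not overlap, by a gap of less than 0.05 (exact permutation p = 0.0286). The difference was -0.17 (95% interval -0.41 to 0.07, adjusted p = 0.949 by limma), and it was -0.10 without HOTAIR 3 and -0.079 without EV 2 and HOTAIR 3. The other ADAM10 probe differed by -0.24 (95% interval -0.55 to 0.08) with overlapping groups. ADAM17, the enzyme that releases tumour necrosis factor, differed by -0.005 (95% interval -0.48 to 0.47).

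ADAM19 had the largest difference of the tested active ADAMs. ADAM19, meltrin beta, which sheds neuregulin and acts in heart development, read 1.42, 1.71, 1.35 and 1.75 on the EV arrays and 2.00, 2.09 and 2.33 on the HOTAIR arrays (probe at chr5:156904475-156904534, hg19, minus strand). All 3 HOTAIR arrays lay above all 4 EV arrays. ADAM19 was 1.49-fold higher (log2 difference 0.58, 95% interval 0.23 to 0.92, exact permutation p = 0.0286, adjusted p = 0.393 by limma), and the difference stayed between 0.49 and 0.65 with any 1 array left out. Its other probe was detected on 1 HOTAIR array and was not tested. ADAM8, a protease best known from leukocytes, read -0.06, -0.26, 0.01 and -0.30 on the EV arrays and 0.04, 0.30 and 0.17 on the HOTAIR arrays. The groups just failed to touch, and the log2 difference was 0.32 (95% interval 0.03 to 0.62, exact permutation p = 0.0571, adjusted p = 0.785 by limma). ADAM9 differed by 0.08, ADAM12 by 0.08 and ADAM33 by -0.10, with overlapping groups. ADAM15, an ADAM with an integrin-binding sequence, showed 2 patterns. The probe at chr1:155035192-155035251 (hg19, plus strand) differed by 0.20 with values between 5.22 and 5.60 on all 7 arrays. The probe at chr1:155030539-155030598 read -2.05 on EV 2 and -0.58 on HOTAIR 3, against 0.32 to 1.09 on the other 5 arrays. ADAM21 was detected on all 4 EV arrays and on 2 HOTAIR arrays and differed by 0.16 (95% interval -0.75 to 1.06). It read -3.03 on HOTAIR 3, above the other 6 arrays, and the difference turned to -0.37 without HOTAIR 3 and to -0.27 without EV 2 and HOTAIR 3. ADAM20 and ADAM28 were not detected, and ADAM30 was detected on 1 HOTAIR array.

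The ADAMs without a complete zinc site were sparsely expressed. ADAM23, an adhesion protein of neurons, was detected on 1 of 4 EV arrays and on all 3 HOTAIR arrays. It read -5.39, -4.39, -5.57 and -5.17 on the EV arrays and -4.30, -4.63 and -4.00 on the HOTAIR arrays. EV 2 lay among the HOTAIR arrays, and the other 3 EV arrays lay below them. The difference was 0.82 on the log2 scale (95% interval 0.14 to 1.50, adjusted p = 0.728 by limma). Since 3 of the 4 EV values were not well above background, the size of the difference is uncertain. After the normexp background correction it was 0.19. By the bound used for HOTAIR, the ratio of the ADAM23 group means was at least 1.64 with all arrays. Without EV 2, no EV array held ADAM23 well above background, and that ratio was at least 1.90. These ratios leave out the spread between arrays, and the 95% interval with all arrays began at 0.14 on the log2 scale. The probe entered the test through the HOTAIR arrays alone, so the filter favoured this direction. The other ADAM23 probe was detected on 1 EV array and 2 HOTAIR arrays and was not tested. ADAM22, a neuronal relative of ADAM23, differed by 0.40 and the difference rested on HOTAIR 1, without which it was -0.02. ADAM11 was detected on 3 EV arrays and 1 HOTAIR array by 1 probe, which read -1.53 on EV 2 and -1.55 on HOTAIR 3, and between -6.14 and -4.01 on the other 5 arrays. The mostly testis-linked ADAM2, ADAM7, ADAM18, ADAM29 and ADAM32 were not detected, nor were ADAM3A, ADAM5P and ADAM6, which the annotation or RefSeq gives as pseudogenes or which were not classed.

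Of the ADAMTS genes, ADAMTS6 had the largest difference of any tested member. ADAMTS6 is a little-studied family member that has been linked to fibrillin microfibrils and heart development. The probe at chr5:64444831-64444890 (hg19, minus strand) read -2.44, -1.89, -2.38 and -2.67 on the EV arrays and -3.20, -3.27 and -3.11 on the HOTAIR arrays. All HOTAIR arrays lay below all EV arrays and close to each other. The probe at chr5:64447355-64447414, on the same strand, read -3.01, -3.45, -2.98 and -3.32 on the EV arrays and -3.82, -3.68 and -3.72 on the HOTAIR arrays, again without overlap. By the first probe ADAMTS6 was 1.80-fold lower in HOTAIR cells (log2 difference -0.85, 95% interval -1.28 to -0.42, exact permutation p = 0.0286, adjusted p = 0.240 by limma). By the other it was 1.46-fold lower (log2 difference -0.55, 95% interval -0.89 to -0.21, exact permutation p = 0.0571, adjusted p = 0.448 by limma). The remaining ADAMTS6 probe was not detected on any array. The rank product, the test named in the study's methods, placed ADAMTS6 below 0.05 for lower expression (estimated share of false positives 0.0417), 1 of 33 probes that it called lower on the whole array. It called no member higher, out of 53 probes on the array. With any 1 array left out, the difference by the first probe stayed between -0.96 and -0.70, and no adjusted p passed 0.05 by limma. After the normexp background correction the differences were -0.50 by the first probe and -0.28 by the other.

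The proteoglycan-cleaving ADAMTS genes were detected in part. ADAMTS1, which cuts versican and aggrecan, differed by -0.11 and -0.17 by its 2 probes. ADAMTS5, the main aggrecan-cleaving enzyme of cartilage, differed by -0.34 (95% interval -0.75 to 0.06) and ADAMTS9 by -0.09, and the groups of each probe overlapped. ADAMTS4 was detected on 1 HOTAIR array, and ADAMTS8, ADAMTS15 and ADAMTS20 on none. ADAMTS3, a procollagen N-propeptidase that also takes part in the activation of the lymphatic growth factor VEGF-C, differed by 0.02, while its relatives ADAMTS2 and ADAMTS14 were not detected. ADAMTS13, which cuts von Willebrand factor, differed by -0.23 (95% interval -0.57 to 0.11).

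ADAMTS7, which cuts cartilage oligomeric matrix protein (COMP), gave different readings by probe. The probe at chr15:79051790-79051849 (hg19, minus strand) read 6.03, 3.91, 5.92 and 6.43 on the EV arrays and 6.38, 6.05 and 6.11 on the HOTAIR arrays. EV 2 lay far below the other 6 arrays. The log2 difference of 0.61 (95% interval -0.69 to 1.90, adjusted p = 0.993 by limma) was 0.05 without EV 2. The probe at chr15:79058743-79058802, on the same strand, was detected on 1 HOTAIR array and on no EV array, and it was not tested. Of the 4 probes annotated to ADAMTS7, the other 2 lie elsewhere on the chromosome, at chr15:85805126-85805185 and chr15:85811014-85811073, and the transcript that they measure is uncertain. The former was tested and differed by 0.10, and the latter was not detected. ADAMTS16, a protease expressed in the kidney, read -4.44, -4.11, -4.36 and -4.95 on the EV arrays and -4.64, -5.29 and -4.83 on the HOTAIR arrays. EV 4 lay among the HOTAIR arrays, and the difference was -0.46 (95% interval -1.0 to 0.09, adjusted p = 0.926 by limma), or -0.27 without HOTAIR 2. After the normexp background correction the ADAMTS16 difference was -0.10. ADAMTS10 and ADAMTS18 were detected on 1 HOTAIR array each. ADAMTS12, ADAMTS17 and ADAMTS19 were not detected.

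The inhibitors were among the genes seen on every array, except TIMP3. TIMP4, an inhibitor known for its restricted tissue range, read -1.48, -1.06, -1.44 and -1.32 on the EV arrays and -0.78, -0.99 and -0.74 on the HOTAIR arrays (probe at chr3:12194728-12194787, hg19, minus strand). All HOTAIR arrays lay above all EV arrays. TIMP4 was 1.40-fold higher (log2 difference 0.49, 95% interval 0.16 to 0.81, exact permutation p = 0.0571, adjusted p = 0.505 by limma). After the normexp background correction the difference was 0.31. TIMP2, which inhibits MMPs and is also needed for the activation of MMP2 by MMP14, read 4.10, 4.26, 3.91 and 3.66 on the EV arrays and 4.20, 4.38 and 4.58 on the HOTAIR arrays. EV 2 lay above HOTAIR 1, so the groups overlapped, and the log2 difference was 0.41 (95% interval 0.01 to 0.81, adjusted p = 0.838 by limma). TIMP1, the broad inhibitor often raised in inflammation, read 2.43, 2.92, 2.46 and 2.66 on the EV arrays and 2.73, 2.59 and 2.73 on the HOTAIR arrays. The groups overlapped, with a log2 difference of 0.06 (95% interval -0.27 to 0.40, adjusted p = 0.993 by limma). TIMP3, the inhibitor that binds the matrix, stayed between -7.70 and -7.04 on all 7 arrays and was not detected.

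**Figure D3:**
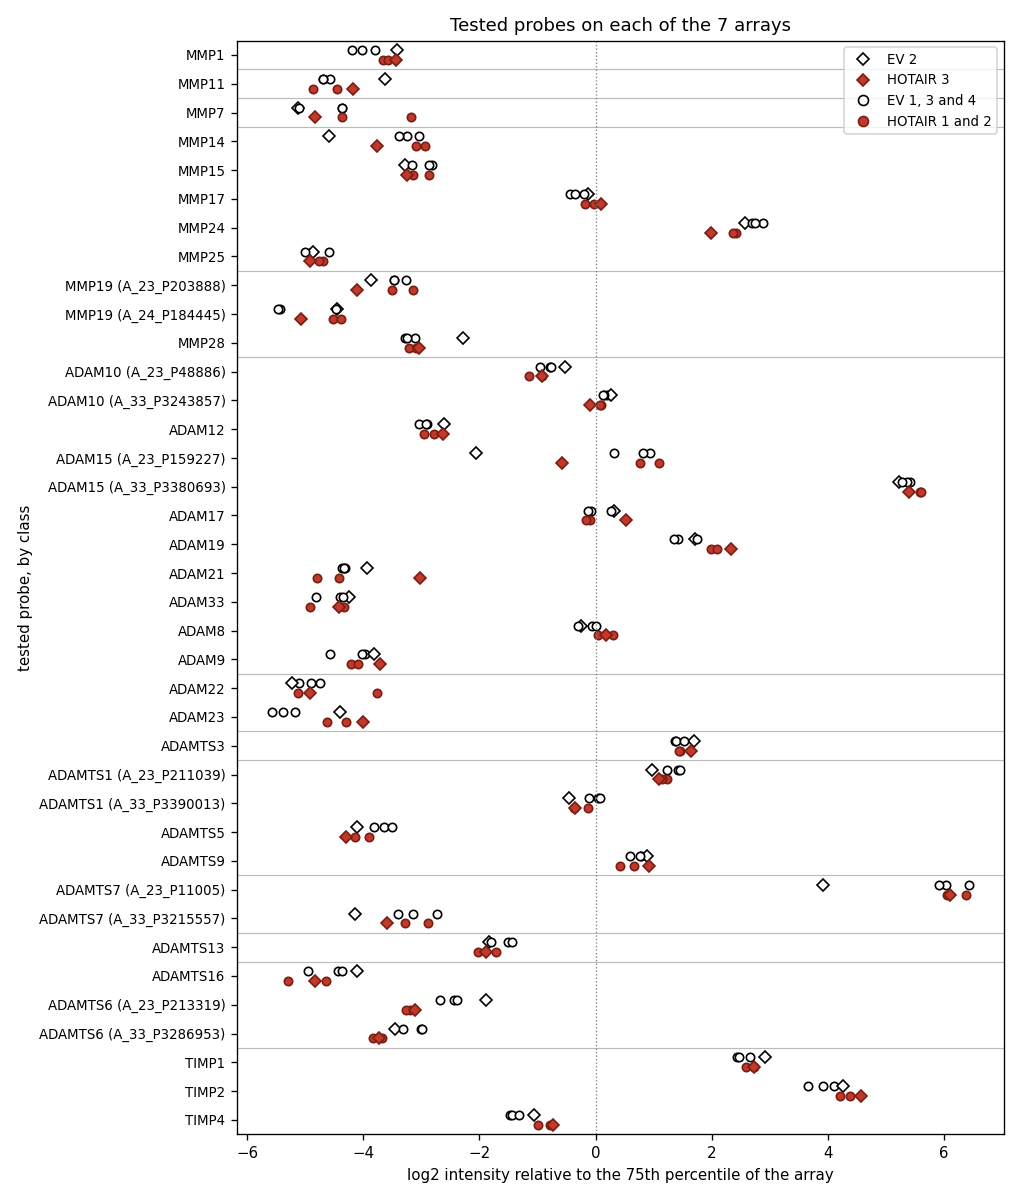
Each row is a tested probe, grouped by class, and each point is 1 array, as log2 intensity relative to the 75th percentile of that array (dotted line at 0). Open symbols are the 4 EV arrays, filled symbols the 3 HOTAIR arrays, and diamonds mark EV 2 and HOTAIR 3. Both ADAMTS6 rows and MMP24 have every filled symbol to the left of every open symbol, and ADAM19, ADAM8 and TIMP4 have them to the right.

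EV 2 stood apart from the other arrays and HOTAIR 3 deviated with it. On the first principal component of all tested probes, EV 2 lay at 74.0, HOTAIR 3 at 21.1 and the other 5 arrays between -29.4 and -8.50. Over all 20419 tested probes the departures of these arrays from the mean of their own group correlated at 0.619, and probes are not independent replicates. Among the 38 member probes, EV 2 deviated by more than 0.5 log2 units from the EV mean for 8, and HOTAIR 3 from the HOTAIR mean for 4, against 1 to 3 on the other 5 arrays. MMP14 and the upstream ADAM15 probe were low on both arrays, whereas ADAM17 and ADAM23 were on the high side of their groups on both. With EV 2 and HOTAIR 3 left out, 17 of the member probes tested (43.6%) had groups that did not overlap, against 28.4% of all probes, and none passed the adjusted p by limma. Fewer arrays make groups overlap less by construction. In that comparison the log2 difference was -0.74 for ADAMTS6, 0.54 for ADAM19, 0.53 for TIMP4, -0.39 for MMP24 and 0.38 for MMP1. It was 0.84 for MMP7. The ratio of the ADAM23 group means was then at least 1.71 (adjusted p = 0.246 by limma), which leaves out the spread between arrays. It is given as a bound since none of the 3 EV arrays left held ADAM23 well above background. The ADAM23 probe entered that test through the HOTAIR arrays alone, so the filter favoured a higher value there. The part of RNA quality or hybridization in these deviations was not tested.

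**Figure D4:**
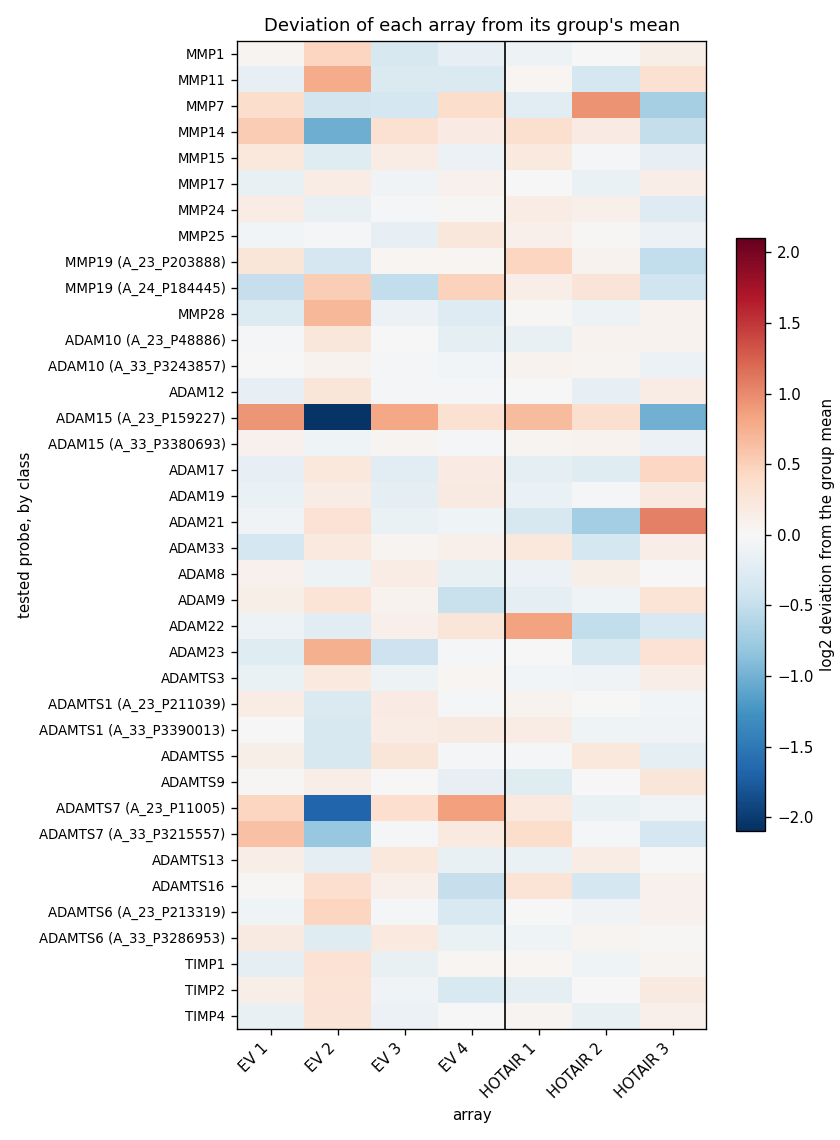
Each row is 1 of the 38 tested probes and each column an array. Colour gives the deviation from the mean of the array's own group in log2 units, red above and blue below. EV 2 holds the strongest blue cells, for the upstream ADAM15 probe and ADAMTS7, and HOTAIR 3 is blue for the same ADAM15 probe.

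Genes around the proteases gave no call by limma. The 7 lists of relatives, activators, partners and substrates held 88 genes, of which 87 were on the array and 66 were tested by 88 probes. None passed the adjusted p by limma, and for 8 probes (9.09%) the groups did not overlap, near the 7.70% of all tested probes. The ADAMTS-like proteins, which resemble ADAMTS proteases without the protease domain, had 3 such probes among 7, a count too small to set against that share. The genes named next are given as values. ADAMTSL1 read 0.66, 0.71, 0.89 and 0.84 on the EV arrays and -0.05, 0.33 and -0.02 on the HOTAIR arrays. Its log2 difference was -0.69 (95% interval -1.0 to -0.38, adjusted p = 0.176 by limma). Papilin (PAPLN) was also lower, with a log2 difference of -0.61 and an adjusted p of 0.448 by limma. ADAMTSL3 was well above background on 0 of 4 EV arrays and was detected on all 3 HOTAIR arrays, where it was at least 1.44-fold higher than the lowest measurable EV signal (adjusted p = 0.632 by limma). Its probe entered the test through the HOTAIR arrays alone, so the filter favoured this direction.

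The procollagen C-proteinase enhancers PCOLCE and PCOLCE2, which assist the astacin protease BMP1, were higher by 0.37 and 0.36 on the log2 scale, with adjusted p-values of 0.834 and 0.623 by limma. TFPI2, a secreted inhibitor of serine proteases that restrains matrix breakdown, read 3.51, 3.47, 3.49 and 3.54 on the EV arrays and 4.10, 4.11 and 3.83 on the HOTAIR arrays. Every HOTAIR array lay above the EV arrays, and the log2 difference was 0.51 (95% interval 0.26 to 0.77, adjusted p = 0.227 by limma). TSPAN33, a tetraspanin that partners ADAM10, was lower on every HOTAIR array than on any EV array, with a log2 difference of -0.36 and an adjusted p of 0.478 by limma. Of 30 probes for ADAM10 and ADAM17 substrates, 1 of NOTCH2 had groups that did not overlap (log2 difference 0.22), and the median over them was 0.04. The plasminogen system, whose protease plasmin can activate MMPs, had 6 tested probes with a median of 0.12, and the proprotein convertases, which cut the precursors of ADAMs and membrane-type MMPs, had 5 with a median of -0.05. For each probe of both lists the EV and HOTAIR arrays overlapped.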

How the data were processed

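The authors labelled total RNA with Cy3, hybridized it to 1-colour Agilent arrays and quantified the scans with Agilent Feature Extraction 10.7.3.1, as the submitters' processing notes state. The deposited values are processed intensities, from which the software had subtracted background and removed spatial trends, without scaling between arrays. A deposited table of the series held the same intensities within 0.6% in all 440783 cells. Its software calls of background and outlier spots were taken from the deposited scanner files. Outlier spots were left out, log2 intensities were scaled by the 75th percentile of the 58717 non-control spots of each array, and spots of a probe were averaged. All tested probes were fitted with limma 3.58.1 in R 4.3.3 (lmFit and eBayes), and p-values were adjusted by the Benjamini-Hochberg method over all 20419 tested probes. Exact permutation tests were two-sided over 35 splits of the arrays. No spot was saturated. The fits were checked on simulated data.

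The alternatives tried were quantile normalization, a normexp background correction (offset 50), other scaling, filters on dim probes, the unscaled deposited table, the rank product (100 permutations), the Mann-Whitney U test, the replicate number as a block, moderated variances with a trend, and each array left out. A gene with several probes was represented by the tested probe with the highest mean, and both probes are given where each was tested. Text names the marker genes of the families, the 10 tested genes with the largest difference, the genes whose arrays did not overlap, the genes detected on all arrays, and the companion genes whose arrays did not overlap, which were chosen after their values were seen, as were other genes named as not detected or by example. A marker of the renal epithelial list is not reported here. The members and the gene lists were chosen with earlier results of these data known.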

Additional observations from a re-analysis of the deposited data

Results flagged for a closer look

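In 3 of the 38 EV groups examined, 1 array lay further from the others than the 95% critical value of Dixon's ratio for 4 values, where chance alone gives 1.9. In each of them the array was EV 2. For MMP11 the ratio, the gap to the next array over the whole range, was 0.883, with -3.62 on EV 2 and -4.57, -4.69 and -4.70 on EV 1, EV 3 and EV 4. For ADAM21, a testis-linked ADAM, the ratio was 0.870, with -3.94 on EV 2 and -4.31, -4.37 and -4.33 on the others. For MMP28 it was 0.834, with -2.28 on EV 2 and -3.28, -3.11 and -3.25 on the others. The log2 differences, HOTAIR minus EV, of these genes were -0.10, 0.16 and -0.13, and none passed the adjusted p by limma. Without EV 2 and HOTAIR 3 the difference of ADAM21 was -0.27, with every HOTAIR array below every EV array, and that of MMP28 was 0.06. The difference of MMP11 was -0.00023 without EV 2 and HOTAIR 3, and 0.16 without EV 2 alone.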

How the results depend on the processing

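No member probe and no companion probe passed the adjusted p in any of the limma alternatives run, with each array left out in turn or with EV 2 and HOTAIR 3 both left out. The rank product called 1 member probe, of ADAMTS6, and the Mann-Whitney U test, whose smallest two-sided p with these arrays is 0.0571, called 0 members. The normexp correction moved ADAMTS6 to -0.50 and ADAMTS16 to -0.10. The normexp values of HOTAIR and IGFBP2 were 1.06 and 1.22, still called. With no filter on dim probes, 90 member probes entered. With 1 array left out, between 38 and 40 member probes were tested, between 7 and 14 had groups that did not overlap (14 without EV 2, or 35.9% against 14% of all probes, and 12 without HOTAIR 2, or 30% against 12%), and their median log2 difference ran from -0.0041 to 0.12, the highest without HOTAIR 2. With EV 2 and HOTAIR 3 out, the count was 17. Under at least 1 of the 17 alternatives refitted with limma, 16 of the 38 tested probes turned direction. None of these was among the 7 probes whose groups did not overlap, and none had a difference of more than 0.42 in size with all arrays. Leaving arrays out cannot turn a probe whose groups do not overlap, so for those alternatives this outcome was fixed in advance. Among the genes with the largest differences or marking the families, direction turned for ADAM22 (-0.023 without HOTAIR 1, up to 0.66) and for MMP14 (-0.044 without EV 2, up to 0.55). The ADAM21 probe turned to -0.37 without HOTAIR 3, the upstream ADAM15 probe to -0.26 and MMP11 to 0.16 without EV 2. The cause was not tested. The deviations of same-numbered arrays correlated at 0.386 for number 1, -0.368 for number 2 and -0.406 for number 3. Only the arrays numbered 1 deviated together. Deviations within a group sum to 0 and are thus tied to each other, so these correlations cannot decide whether the numbers pair the samples. With the replicate number as a block, in which EV 4 has no partner, 0 member probes and 0 of all probes were called, and HOTAIR (3.59, adjusted p = 0.0772 by limma) and IGFBP2 (2.38, adjusted p = 0.127 by limma) lost their calls.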
